A study of Rattus norvegicus with 2 samples.

Results

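Platelets are cell fragments without a nucleus that are shed by megakaryocytes, and they carry part of the megakaryocyte's messenger RNA into the blood. They stick to damaged vessel walls through adhesion receptors, are switched on by soluble agonists, and release the contents of their granules, which together close a wound. A list of 34 platelet and megakaryocyte genes was followed in the whole blood of rats given lavender oil (LO). Members were found by setting the RefSeq accession that names each array feature against a RefSeq gene table, which gave 22 genes on 23 probes of 41009 probes in all. The list members Gp1ba, Gp6, Itga2b, Clec1b, Cd9, Vwf, Treml1, Fermt3, Tln1, Tubb1, Stim1 and Gfi1b had no match and were not analysed here.

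The comparison was between male rats that received LO, the distilled oil of Lavandula angustifolia, at 5 mg/kg into the stomach, and male rats that received the 10% ethanol diluent alone (0 mg/kg). Both groups thus received ethanol, were given as 7 weeks old, were dosed daily for 13 days and were bled under ether. The labels place the bleeding 14 days after treatment, while a figure legend of the study places it on day 14. The time since the last dose is therefore unclear. The strain is given as F334 in the study and as Wistar in another label field, and the blood source as the heart, or the heart and portal vein. Blood RNA from the 6 rats in each group went into 1 pool, so that each group is 1 sample and nothing here measures the spread between rats. In pooled whole blood, fewer platelets and less RNA per platelet cannot be told apart.

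The pools were hybridised together to 2 Agilent rat arrays, on which each spot gives a signal for the dye Cy5 and a signal for the dye Cy3. Array 1 carried LO in Cy5 and control in Cy3, and on array 2 the dyes were swapped between the pools, which makes the arrays 1 replicate and leaves no test between the conditions. Spots with an outlier flag (non-uniform, or far from their repeats) were left out, and the spots of a probe were averaged. Over the 4 channels, between 44.8% and 50.3% of the 43379 features were rated well above background by the scanner software. For the 15386 probes well above background in every channel, Pearson's r between the arrays' LO/control log2 ratios was -0.70, a description across probes that share both pools and both arrays. The ratios of the series therefore followed the dye more than the pool. For this reason each ratio was split into an LO part, which averages the LO/control log2 ratio over both arrays, and a dye part, array 1 minus array 2 divided by 2, which is above 0 when Cy5 was the brighter dye. The array part, the mean log2 signal of array 1 minus that of array 2 divided by 2, completed the split.

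Of the 23 probes, 18 were well above background in all 4 channels, which is 78.3% of them against 37.5% of all probes. Every member probe has a gene symbol, as do 10767 of all probes, so these shares describe unlike sets. The platelet-defining markers matched to a probe, Pf4, Ppbp and Gp9, were among these 18, so that platelet RNA was measured in both pools on both arrays. A further 3 probes, for P2ry1, F2r and Selp, were well above background in no channel, as were 41.1% of all probes. The remaining probes, for Thbs1 and a second probe of Gng11, were above background in Cy3 on both arrays and in Cy5 on neither. No member spot was saturated. The LO part of the 18 probes lay between -0.079 and 0.085 on the log2 scale, with a median of 0.0044, and the median over all 15386 probes was -0.0026.

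**Figure D1:**
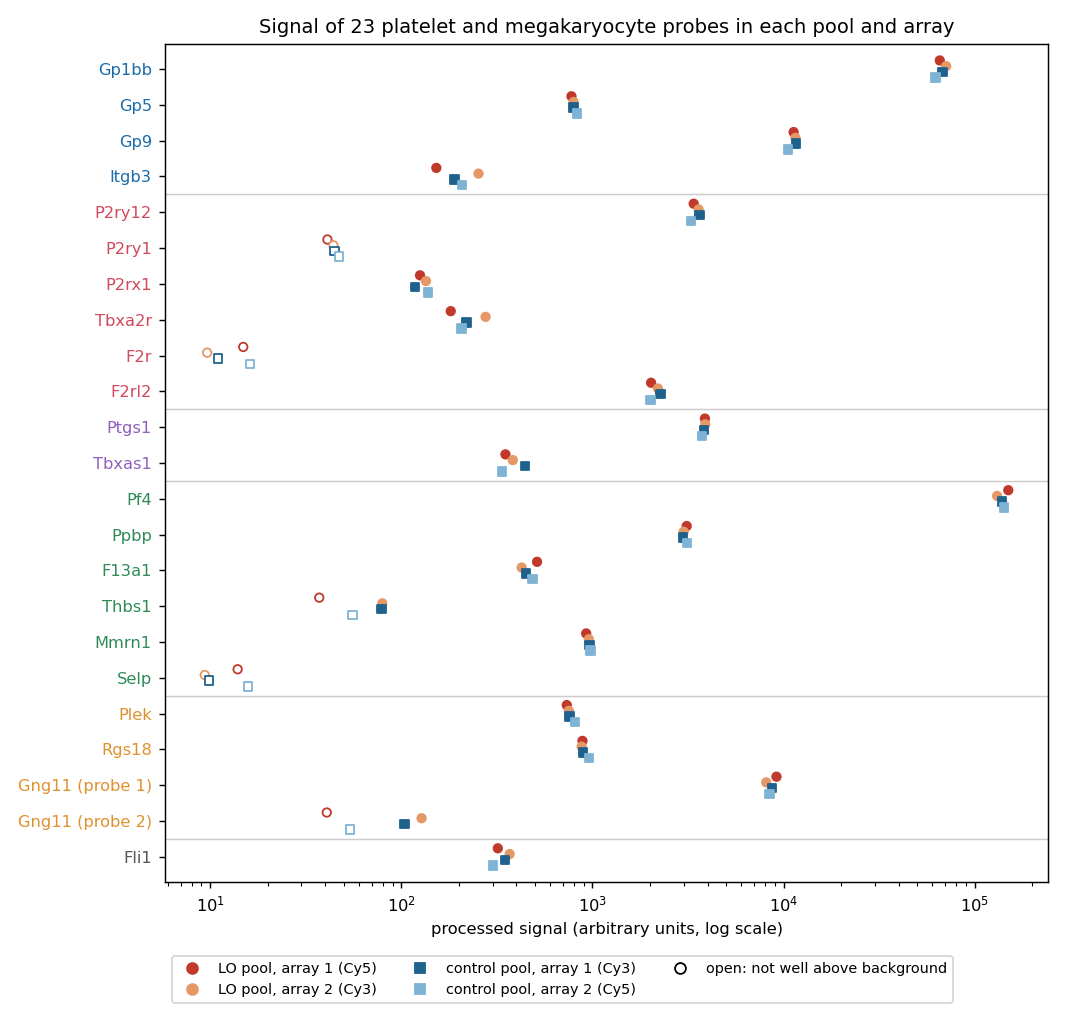
Processed signal (arbitrary units, log axis) of each of the 23 member probes in the LO pool (circles) and the control pool (squares) on arrays 1 and 2, ordered by role, with open symbols for channels not well above background. The 4 signals of a probe lie close together in most rows, and the open symbols belong to P2ry1, F2r, Selp, Thbs1 and probe 2 of Gng11. Signals of different probes are not levels that can be set against each other.

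Adhesion receptors fix the platelet to the vessel wall and to other platelets. The von Willebrand factor receptor is built from the products of Gp1ba, Gp1bb, Gp9 and Gp5, of which all but Gp1ba were matched to a probe. Their promoter windows are shown because these subunits of 1 complex were measured side by side in all 4 channels, and because GATA and ETS family factors are known to act on megakaryocyte genes. Each window runs from 250 bases before to 50 bases after the gene start in RefSeq (build GRCr8), with capitals for the words GATAA and GATAG, for GGAAG, and for the same words read on the other strand; the words did not overlap in these windows.
Gp1bb, chr11:95882311-95882610, + strand: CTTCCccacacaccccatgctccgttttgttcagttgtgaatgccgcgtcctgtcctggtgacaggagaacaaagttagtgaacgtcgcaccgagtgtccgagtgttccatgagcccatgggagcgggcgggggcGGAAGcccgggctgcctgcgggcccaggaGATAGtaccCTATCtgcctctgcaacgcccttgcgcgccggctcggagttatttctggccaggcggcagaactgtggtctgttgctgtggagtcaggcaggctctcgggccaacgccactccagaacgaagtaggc
Gp5, chr11:83948257-83948556, + strand: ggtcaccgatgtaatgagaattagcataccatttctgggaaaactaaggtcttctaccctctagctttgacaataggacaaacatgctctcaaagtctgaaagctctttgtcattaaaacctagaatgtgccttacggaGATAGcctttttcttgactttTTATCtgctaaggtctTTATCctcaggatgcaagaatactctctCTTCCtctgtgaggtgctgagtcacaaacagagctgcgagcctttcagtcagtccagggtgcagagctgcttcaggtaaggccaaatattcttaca
Gp9, chr4:121792592-121792891, + strand: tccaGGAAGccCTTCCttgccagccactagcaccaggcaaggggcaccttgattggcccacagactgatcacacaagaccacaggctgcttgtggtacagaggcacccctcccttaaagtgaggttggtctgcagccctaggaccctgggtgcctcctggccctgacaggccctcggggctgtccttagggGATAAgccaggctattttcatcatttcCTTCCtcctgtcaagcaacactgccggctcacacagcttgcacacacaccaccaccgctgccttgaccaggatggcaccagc
Each of the 3 windows held both kinds of word. Among all 33469 windows of the table, 42.7% held a GATA word, 70.1% the ETS word and 29.0% both. Of the 27 list members with a window, 12 (44.4%) held both, among them Gp1ba and Itga2b, which had no matched probe. Among the 16 members with a window and a matched probe, 6 held both. A match is a description of letters and was set against no binding data.

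Gp1bb had processed signals of 65622 in the LO pool and 67641 in the control pool on array 1, and of 70824 and 62424 on array 2. The LO pool was thus the lower on array 1 and the higher on array 2, with LO over control at 0.970 and then 1.13. Gp9 showed the same order, with 11278 for LO and 11612 for control on array 1, and 11532 and 10568 on array 2. Gp5 had 776 and 796 on array 1, and 796 and 827 on array 2, so that the LO pool was the lower on both arrays, by a ratio of 0.975 and 0.962. The geometric mean of the LO/control ratio over both arrays was 1.05 for Gp1bb, 1.03 for Gp9 and 0.969 for Gp5. The error model of the software gives each log ratio an error, and from it a 95% range that covers spot measurement alone. That range was 0.862 to 1.28 for Gp1bb, 0.846 to 1.253 for Gp9 and 0.793 to 1.18 for Gp5, and it held 1 in each case. The lowest such error among the 18 members was 0.144 (log2), above the SD of 0.124 of the LO part over all probes. A range that holds 1 therefore says little about a member.

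Itgb3, the beta subunit of the fibrinogen receptor that joins platelets to each other, had lower signals, closer to background. The LO pool gave 152 on array 1 and 253 on array 2, and the control pool gave 189 and 207. These values cross, since LO held both the lowest and the highest. LO over control was 0.805 on the first array and 1.22 on the other, with a geometric mean of 0.992 (95% range 0.768 to 1.28). The Itgb3 signals were also lower on array 1 in general, with an array part of -0.22 on the log2 scale, the largest in size among the 18 probes, while the median array part over all probes was -0.023. Over the 4 adhesion receptor probes the LO part ran from -0.046 to 0.069 on the log2 scale.

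Agonist receptors carry the signals of ADP, ATP, thromboxane and thrombin into the platelet. P2ry12, the ADP receptor targeted by antiplatelet drugs, gave 3385 in the LO pool and 3640 in the control pool on array 1, and 3592 and 3283 on array 2. The pools changed places with the dyes, and the geometric mean of LO over control was 1.01 (95% range 0.829 to 1.23). F2rl2, a protease-activated receptor that assists thrombin signalling, behaved in the same way, with 2026 for LO and 2272 for control on array 1, and 2199 and 2012 on array 2. Its geometric mean was 0.987. P2rx1, the ATP-gated cation channel, had 125 and 118 on array 1, and 135 and 138 on array 2, with a geometric mean of 1.02. Its range was the widest at its upper end, 0.768 to 1.34.

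Tbxa2r, the receptor for thromboxane A2, had the widest gap between the arrays among the 18 probes. The LO pool gave 181 on array 1 and 276 on array 2, while the control pool gave 219 and 206. The LO/control ratio was therefore 0.826 with LO in Cy5 and 1.34 with LO in Cy3, and the geometric mean was 1.05 (95% range 0.833 to 1.33). Read by dye, Cy5 was below Cy3 on both arrays, at 0.826 on array 1 and 0.748 on array 2. The probes of P2ry1, the second ADP receptor, and F2r, a thrombin receptor, were not well above background in any channel, with signals between 41.0 and 47.2 for P2ry1 and between 9.64 and 16.2 for F2r. No ratio is given for them, and a probe not above background does not show that the RNA was missing.

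The thromboxane enzymes make that agonist inside the platelet. Ptgs1, cyclooxygenase-1 and the target of aspirin, was printed on 10 spots, of which 8 were unflagged, and it is the only member with repeated spots. Over the 8 spots the processed signal was 3874 ± 132 (SD) for LO and 3838 ± 140 for control on array 1, and 3889 ± 81.9 and 3743 ± 71.8 on array 2. The spots of the pools overlapped in signal on both arrays, and the LO/control log2 ratio was above 0 on 6 of 8 spots there and on 8 of 8 spots on array 2. The LO part was 0.034 ± 0.011 (SD over 8 spots) on the log2 scale, which is a ratio of 1.02. Spots of 1 array share the same labelled RNA, so this SD describes the printing and reading of spots and no difference between rats. It was smaller than the error of 0.14 that the software's model gives to the same LO part. Tbxas1, thromboxane A synthase, had 350 for LO and 444 for control on array 1, and 383 and 337 on array 2. Its geometric mean was 0.947 (95% range 0.768 to 1.17), the lowest of the 18, from a ratio of 0.788 on array 1 and 1.14 on array 2.

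Granule proteins are stored and set free on activation. Pf4, platelet factor 4, is a heparin-binding chemokine of the alpha granule and the classic platelet transcript. Its probe gave 149739 in the LO pool and 139088 in the control pool on array 1, and 130888 and 142680 on array 2. LO was the higher on array 1 and the lower on array 2, which means that Cy5 was the brighter dye both times, 1.08-fold and 1.09-fold. The geometric mean of LO over control was 0.994 (95% range 0.817 to 1.21). Ppbp, the precursor of a neutrophil-attracting chemokine, is the next annotated gene to Pf4, with 0 genes between them in the GRCr8 annotation. It had 3111 and 2972 on array 1, and 3000 and 3119 on array 2, and a geometric mean of 1.003.

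F13a1, the A subunit of the fibrin-crosslinking factor XIII, is made by monocytes as well as megakaryocytes. The LO pool gave 513 on array 1 and 426 on array 2, and the control pool 448 and 484. The ratio of 1.14 on array 1 and 0.879 on array 2 left a geometric mean of 1.003. Its dye part, 0.19 on the log2 scale, was the highest towards Cy5 among the 18 probes. Mmrn1, multimerin 1, which carries factor V in the granule, had 927 and 964 on array 1, and 957 and 978 on array 2. Here the LO pool was the lower on both arrays, with a geometric mean of 0.970 (95% range 0.795 to 1.18). Selp, the adhesion molecule that reaches the surface with the granule membrane, was not well above background in any channel, with signals from 9.36 to 15.7, and no ratio is given.

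Thbs1, thrombospondin 1, stood at the edge of detection. The control pool gave 78.9 in Cy3 on array 1 and 55.5 in Cy5 on array 2, and the LO pool gave 37.2 in Cy5 on array 1 and 79.5 in Cy3 on array 2. Only the Cy3 signals were well above background, so that each pool was measured on 1 array of 2, and within Cy3 the pools stood at 78.9 and 79.5 on different arrays. LO over control came to 0.471 on array 1 and to 1.43 on array 2. Each of these ratios has a channel near background, and no mean is given. Across the series, 2.91% of probes were above background in Cy3 on both arrays and in Cy5 on neither.

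Signalling and cytoskeletal members pass the agonist signal on to the integrins. Plek, pleckstrin, is a protein kinase C substrate of platelets and white cells. It had 733 for LO and 757 for control on array 1, and 752 and 809 on array 2. Rgs18, which damps G protein signalling in platelets, had 886 and 893 on array 1, and 877 and 958 on array 2. In both genes the LO pool was the lower on both arrays, with geometric means of 0.949 (95% range 0.778 to 1.16) and 0.953 (95% range 0.782 to 1.16).

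Gng11, a G protein gamma subunit, was measured by 2 probes that differed in detection. The brighter, probe 1, gave 9175 for LO and 8717 for control on array 1, and 8112 and 8441 on array 2, a geometric mean of 1.01. Probe 2 gave 40.7 for LO and 104 for control on array 1, and 128 and 54.0 on array 2. It was above background in Cy3 only, and LO over control came to 0.391 and 2.36 on the arrays, ratios that each rest on a Cy5 signal near background. The pools crossed, with LO holding both the lowest and the highest signal. Probe 2 was also the 1 member with a software spot p under 0.01, the threshold of the study, on both arrays, and it passed towards opposite pools. Across the series, 2.64% of probes passed it both times with the same dye the brighter.

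The transcription factor matched to a probe was Fli1, an ETS family factor of megakaryocytes that is also expressed in other blood cells and in endothelium. The LO pool gave 320 on array 1 and 369 on array 2, and the control pool 348 and 301. LO over control came to 0.919 and 1.22. The geometric mean of 1.06 (95% range 0.860 to 1.31) was the highest of the 18 probes.

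**Figure D2:**
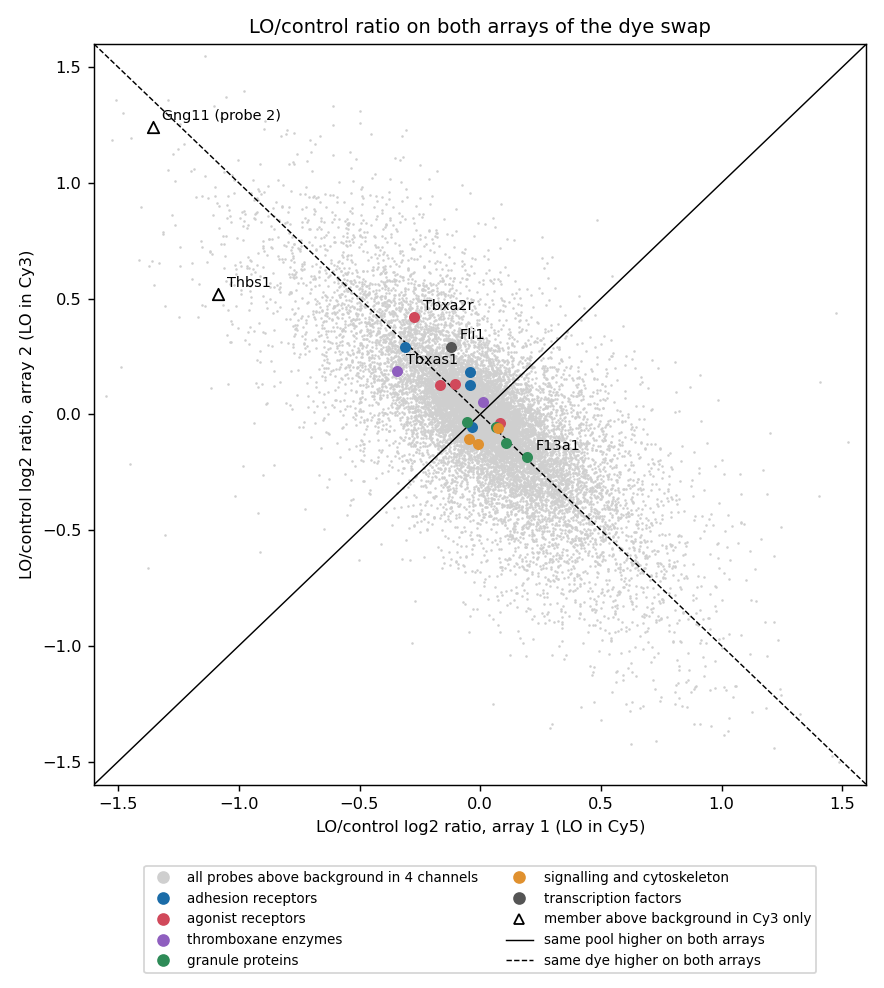
LO/control log2 ratio on array 1 (horizontal) and array 2 (vertical) for 15386 probes with all 4 channels well above background (grey), for the 18 members among them (coloured by role) and for the 2 members above background in Cy3 only (triangles); 4 grey probes lie outside the axes. The cloud runs along the dashed line of equal dye, and most coloured points lie near it, close to the origin, while Thbs1 and probe 2 of Gng11 lie far along its upper left end.

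Set side by side, 0 of the 18 probes reached 1.5-fold between the pools with the same direction on both arrays. In the series 14 of 15386 probes did so, 0.0910%, so that a count of 0 among 18 says little about the members. When the spot p threshold of 0.01 was required on both arrays towards the same pool, 0 of 23 member probes passed, against 0.0219% of 41009. The study's methods state this threshold and a direction that reverses with the dyes. That the threshold must be met on each array is a reading made here. The largest LO part of a member, 1.06-fold, was exceeded in either direction by 37.0% of the 15386 probes. The median size of the LO part was 0.038 on the log2 scale over the members and 0.061 over all probes. The members were also the brighter set, with a median signal of 930 against 290, and bright probes had the narrower LO part throughout the series. With all 15386 probes split by signal into 4 equal classes, its SD was 0.18 in the dimmest class and 0.053 in the brightest, which held 10 of the 18 members. Within the brightest class the median size was 0.027 for the members and 0.032 for all probes, while in the next class, with 5 members, it was 0.075 for the members and 0.054 for all probes.

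The direction of the LO part was split, with 10 probes above 0 and 8 below, against 7487 above and 7899 below in the series. LO/control pointed the same way on both arrays in 5 of 18 probes, 27.8%, against 24.4% of the series. These were Ptgs1 (higher in LO), and Gp5, Mmrn1, Plek and Rgs18 (lower in LO). The ratios of these 5 on single arrays lay between 0.915 and 1.04.

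The dye part was larger than the LO part in 13 of the 18 probes, 72.2%, and in 75.6% of the series. It ran from -0.35 in Tbxa2r to 0.19 in F13a1, with an SD of 0.15 among the members and 0.30 among all probes. Its median size was 0.075 for the members and 0.078 for all probes in the brightest class, 0.19 and 0.13 in the next, and 0.32 and 0.23 in the class below, which held 2 members. In 0 of 18 probes did it reach 1.5-fold, against 6.46% of the series, and in 1, Tbxa2r, it passed a limit of 25% either way, against 22.8%. With 1 channel above background on each array as the filter, 2 of 20 member probes passed 1.5-fold, Thbs1 and probe 2 of Gng11, whose Cy5 signals were not well above background, against 21.1% of 20197. The sign of the dye part rests on the scaling, since median-centred signals moved its median over all probes from 0.0088 to 0.33. Pf4 and Ppbp had dye parts of 0.12 and 0.061 and LO parts of -0.0090 and 0.0049.

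**Figure D3:**
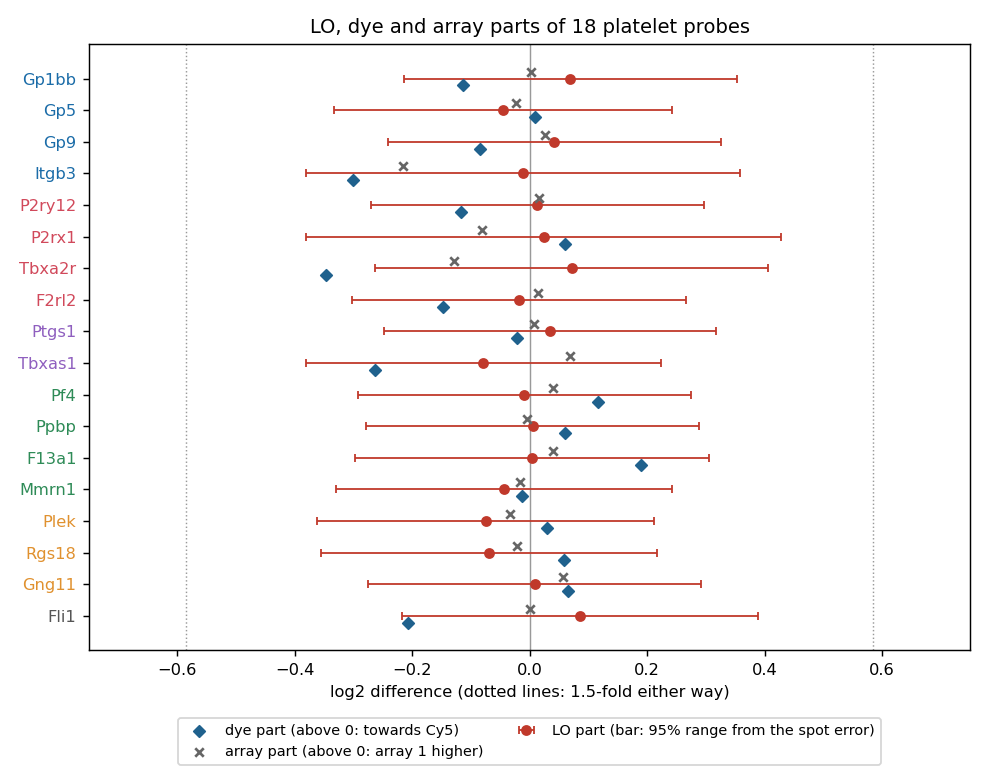
LO part (red circles, with the 95% range from the software's spot error), dye part (blue diamonds) and array part (grey crosses) on the log2 scale for the 18 member probes above background in all 4 channels, with dotted lines at 1.5-fold either way. Every LO part lies between -0.079 and 0.085 with a range that crosses 0, while the dye part of Tbxa2r reaches -0.35. The error behind each range is larger than the SD of the LO part over all probes, so that the crossing says little about the members.

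Other platelet and megakaryocyte genes were taken from a second list of 84, of which 57 were matched to 70 probes. Of these, 51 probes were well above background in all 4 channels and 10 in none. The LO part of the 51 had a median of -0.039 on the log2 scale and ran from -0.21 (Itpr2, a calcium release channel) to 0.12 (Cd47, an inhibitory surface protein of blood cells). LO over control for this Itpr2 probe crossed, at 0.60 on array 1 and 1.24 on array 2, while this Cd47 probe was the higher in LO on both. Another, brighter Cd47 probe crossed, at 1.04 on array 1 and 0.988 on array 2, with an LO part of 0.017. At 1.5-fold 0 of 51 were counted between the pools and 1 towards the same dye, a probe of Gas6, a ligand of receptor kinases. It had 74.6 for LO and 144 for control on array 1, and 122 and 80.4 on array 2, with Cy3 the brighter both times. The 5 probes of highest signal were those of Nrgn, a calmodulin-binding protein, Cd36, a thrombospondin receptor, Srgn, the granule proteoglycan serglycin, and the megakaryocyte and red cell factors Nfe2 and Gata1. Nrgn had 18601 for LO and 15510 for control on array 1, and 14680 and 17421 on array 2, a geometric mean of 1.01. For Cd36 the mean was 0.955 and for Srgn 1.04. Nfe2 was the lower in LO on both arrays, at 0.980 and 0.847, with a geometric mean of 0.911, and Gata1 was at 0.974.

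Several members are also expressed by monocytes, endothelium or other blood cells, and the markers of these cells were measured on the same arrays. Among monocyte markers 5 of 6 genes were matched to a probe, and all 4 probes above background in every channel had an LO part below 0, between -0.20 (Lyz2) and -0.11 (Cd14), with a median of -0.16. The summed signal of these 4 was 28274 for LO and 32764 for control on array 1, and 30162 and 33998 on array 2. Most of each sum was Lyz2 alone, with 25686 and 29739 on array 1, and 27277 and 31001 on array 2. Lyz2 and Csf1r were the lower in LO on both arrays. LO over control was 1.006 for Cd14 on array 1 and 1.001 for Cd68 on array 2. A second Cd14 probe was above background in 1 channel only, and no ratio is given for it. Tbxas1, Plek and F13a1, which monocytes share, had LO parts of -0.079, -0.075 and 0.0040. Neutrophil markers, with 3 of 6 genes matched, had 3 of 3 probes above 0, between 0.054 and 0.12. T cell markers, with 4 of 6 genes matched, had 3 of 3 measured probes above 0, between 0.052 and 0.11. Among them S100a9 crossed, at 0.972 on array 1 and 1.11 on array 2, as did Cd8a, at 0.973 and 1.13. In the series 7487 probes had an LO part above 0 and 7899 below. Among red cell markers the LO part ran from -0.088 (Alas2) to 0.0012 and the dye part from -0.27 to 1.11. Endothelial markers Pecam1 and Kdr had 0.17 and 0.034, and Cldn5 was not above background in 3 channels of 4. Pecam1 crossed between the arrays, with LO over control at 1.67 on array 1 and 0.759 on array 2, and its dye part was 0.57. The B cell markers Blnk and Cd79b had -0.32 and 0.10, and the T cell marker Cd4 was above background in no channel. Blnk crossed too, at 1.15 on array 1 and 0.560 on array 2, with a dye part of 0.52. The part of these cells in the members' values was not tested. Among marker probes well above background in every channel, the count past 1.5-fold in the LO part was 0.

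**Figure D4:**
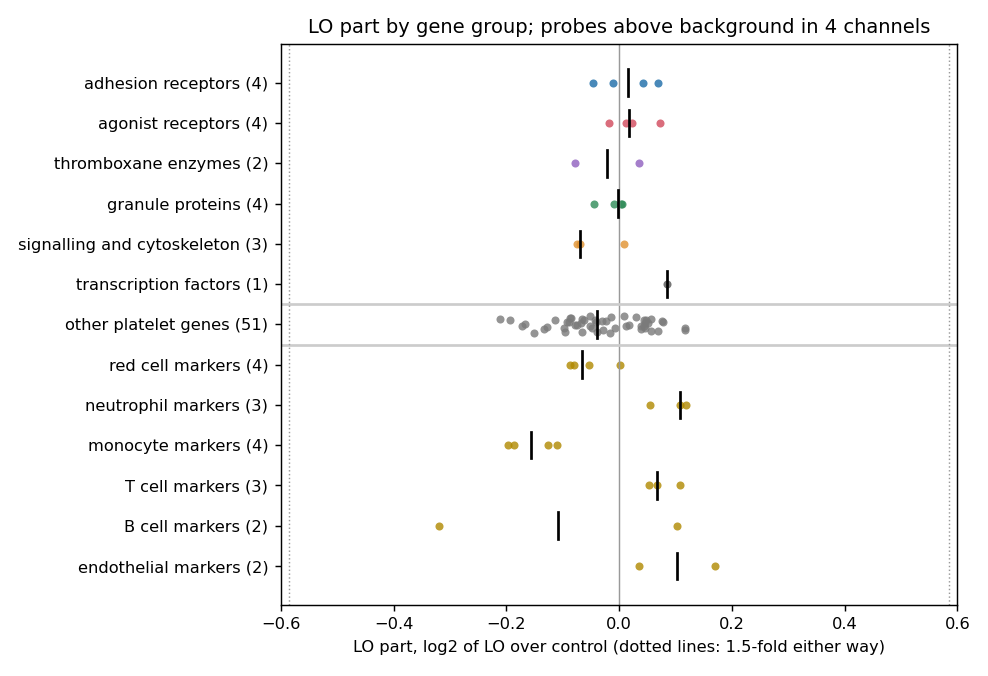
LO part (log2 of LO over control, mean of both arrays) of each probe well above background in all 4 channels, by role of the member genes, for the other platelet genes and for markers of other cells, with the number of probes in brackets and a black line at the median. All points lie within 1.5-fold (dotted lines), the member roles between -0.079 and 0.085 and the monocyte markers between -0.20 and -0.11.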

How the data were processed

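Whole blood RNA of 12 rats, pooled by group, was measured on 2 arrays as a dye swap. The authors extracted the signals with Agilent Feature Extraction 11.0.1.1, which subtracted the background and normalized the dyes by LOWESS. The deposited scanner output gives signal intensities, a log10 ratio (red over green) with its error, a p-value from the spot error model and quality flags. The authors also deposited a value table, which equalled the log10 ratio of the processed signals within 0.0001 for all 43379 features on both arrays, with column medians of 0.0229 and 0.0157. In the scanner output the ratio was set to 0 in 6392 and 5726 of them.

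Control spots and 338 flagged features were left out, spots of a probe were averaged, and log10 ratios were given the sign of LO over control from the labelled dyes and put on the log2 scale. A probe was well above background in a channel when over 0.5 of its spots were. The 95% range of an LO part is 1.96 times its error, which combines the software's errors of both arrays. A change was counted at 1.5-fold in the mean with the same direction on both arrays. No test between conditions was made, since each group is 1 pool, and the number of arrays limits the precision. Probes were named through a GRCr8 RefSeq table (10767 of 41009 probes, 8898 genes). The array design is tied to another build (rn4), and no probe coordinates are given.

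The members and all lists were chosen with earlier results of these data known. All members are accounted for. Other platelet genes were named by the 5 highest signals, with the extremes of the list added after their values were seen, and other cells by marker lists. Promoter windows came from RefSeq (GRCr8), which held one for 27 of 34 members. The alternatives covered the source of the ratio, median centring, normexp (offset 50) with loess, flagged spots, the median over spots, single arrays, fold limits, the p threshold and filters on dim probes. The calculation was tested on simulated data. Python 3.11.15, numpy 2.4.6, pandas 2.3.3, scipy 1.17.1, matplotlib 3.10.9, R 4.3.3 and limma 3.58.1 were used.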

Additional observations from a re-analysis of the deposited data

How the results depend on the processing

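The count of 0 members past 1.5-fold between the pools, and that of 0 past the p threshold on both arrays towards the same pool, held under each alternative that was run. Some of these could not raise a count of 0, namely the stricter limits of 2-fold and p 0.001. The value table left the LO part of all 18 members the same. Keeping flagged spots or taking the median over spots changed that of Ptgs1 alone. The median LO/control log2 ratio of the 18 was -0.043 on array 1 alone and 0.012 on array 2 alone, ratios that also hold the dye part. Against the mean of both arrays, 7 members on array 2 and 6 on array 1 changed sign. These are by construction the members whose ratio pointed opposite ways on the arrays. Median-centred background-subtracted signals gave a median of -0.093 and the LO part of Pf4 as -0.17, where the median of all probes was -0.074, and 7 of 18 members changed sign. Normexp with loess kept all 18 members between 0.947 and 1.05-fold, with 3 changes of sign. The count of members past 1.5-fold towards the same dye was 0, and became 1 at a limit of 25%, 2 with median-centred signals, 2 with at least 1 channel above background on each array, and 2 without a filter on dim probes. For these filters the rise comes from the added probes, Thbs1 and probe 2 of Gng11. With array 1 or array 2 alone the dye and LO parts cannot be separated, so this count was not run there. Ranges rest on the modelled spot error of 0.14 to 0.21 (log2), and all 18 held 1. The SD of the LO part was lower over the 8 Ptgs1 spots, at 0.011. Across probes it was 0.053 in the brightest class and 0.18 in the dimmest. How small a member difference could be detected was not tested, and the spread between rats is unknown.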
